A study of Mus musculus with 17 samples.

Results

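The transplanted cells compared here carried Trem2 or lacked it, while the mice that received them all lacked it. Trem2-WT cells transplanted into Trem2-KO 5XFAD mice (4 libraries, S28 to S31) were set against Trem2-KO cells transplanted into Trem2-KO 5XFAD mice (4 libraries, S32 to S35). The genes were those with a normalized read count of 10 or more in at least 3 of these 8 libraries, which gave 11220 of the 13501 genes in the deposited table and left out 2281. The 8 libraries are part of 17. All hosts had 5XFAD, a set of human amyloid transgenes that gives mice amyloid plaques, and all had received BMT+PLX5622, that is bone marrow transplantation with an inhibitor of CSF1R, the receptor microglia need to survive. The same Trem2 contrast in untreated resident microglia (3 Trem2-WT; 5XFAD libraries, S22 to S24, and 3 Trem2-KO; 5XFAD libraries, S25 to S27) was used for comparison. The other 3 libraries, from normal microglia without 5XFAD, entered only the shared estimate of the spread. The labels give neither the age of the mice nor the knockout allele, and nothing in them tells if the replicates of a group are different animals, so the p-values speak only for the spread among these libraries. Living CD45+CD11b+ brain cells were sorted, and a host's own remaining cells of that kind would be sorted too.

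TREM2 is a receptor on microglia and related macrophages that binds lipids, lipoproteins and amyloid. It has no signalling tail of its own and signals through the adaptor TYROBP (DAP12) and the kinase SYK. In mice with amyloid, microglia need Trem2 to pass from the homeostatic state to the disease-associated state, in which genes of lipid handling, phagocytosis and lysosomes are raised and P2ry12 and other homeostatic genes are lowered.

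The label of circulation-derived myeloid cells was checked first. Ms4a7, known from brain macrophages that come from bone marrow, ran from 16246 to 26888 normalized reads in Trem2-WT donor libraries and from 15783 to 21410 in Trem2-KO donor libraries, against 335 to 1309 in the 6 libraries of 5XFAD microglia. Clec12a, of the same kind, ran from 6042 to 7514 and from 6120 to 9571 in the Trem2-WT and Trem2-KO donor libraries, against 181 to 1200 in microglia. Sall1, a transcription factor of microglia proper, ran from 99 to 251 in Trem2-WT donor libraries and from 87 to 309 in Trem2-KO donor libraries, against 3420 to 9289 in microglia. P2ry12, another microglia gene, was low too, from 6576 to 10483 in Trem2-WT donor libraries and from 13307 to 19783 in Trem2-KO donor libraries. In microglia it ran from 37026 to 67152. Tmem119 and Cx3cr1 came nearer to the microglia range. Tmem119 ran from 57005 to 60155 in Trem2-WT donor libraries and from 48326 to 82663 in Trem2-KO donor libraries, against 75270 to 150624 in microglia. Cx3cr1, the fractalkine receptor, ran from 35043 to 48513 in Trem2-WT donor libraries and from 42165 to 56899 in Trem2-KO donor libraries, against 50804 to 75082 in microglia. For both genes the Trem2-KO donor libraries overlapped microglia and the Trem2-WT donor libraries lay below them. Ms4a7, Clec12a, Sall1 and P2ry12 separated all transplant libraries from microglia, while Tmem119 and Cx3cr1 did not.

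The 8 libraries did not lie evenly. Their read totals ran from 18065645 to 30606394, and Apoe alone took 12.3% to 16.2% of the reads. S30 and S31, both from Trem2-WT donors, differed from each other by a chi-square per degree of freedom of 4.98, against 17.6 to 90.5 for every other pair within the transplant groups. The closest pairs of the 5XFAD microglia groups were not far from this, with 6.21 for S22 and S23 and 9.86 for S25 and S27. S30 and S31 lay at -59.4 and -56.8 on the first principal component, which held 42.4% of the variance. S34 from the Trem2-KO donors lay at 52.7 and the other 5 libraries between -14.9 and 34.5. S30 and S31, called the close pair below, differed by more than counting error, but 2 preparations from a single source would do so too. Whether they share one is not known. They were kept as 2, and most calls depend on that. The fits and the counts over gene lists were also computed with their average as 1 library. Results on promoters, transcript length and GC content, zinc finger genes, overlap of libraries and agreement with microglia used them as 2.

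By the limma test over all tested genes with Benjamini-Hochberg adjustment, 441 genes were higher and 375 lower in Trem2-WT than in Trem2-KO donor libraries at an adjusted p under 0.05 (7.27% of tested genes, 3.93% higher and 3.34% lower). Of these, 195 rose and 54 fell by at least 2-fold. TMM scaling, which moved the median log2 fold change of all tested genes to -0.04 from 0.03, gave 357 higher and 658 lower. The 4 libraries of one group did not overlap the 4 of the other in 1600 genes (14.3%), among them 613 of the 816 called genes. With S30 and S31 averaged, 119 genes were called (1.06%), 81 higher (0.722%) and 38 lower (0.339%), all of them among the 816. With both left out, 17 genes were called (0.152%), 7 higher (0.0624%) and 10 lower (0.0891%), and 11 of the 17 were among the 816. Leaving out 1 library at a time gave 115 calls without S31, 116 without S30, 195 without S34, 410 without S33, 488 without S35 and 1809 without S28. Leaving out a microglia library, which changes only the shared spread, gave 525 without S23 and 1667 without S26. Adjusted p-values of single genes are therefore followed by the highest one reached when any 1 of the 8 transplant libraries was left out.

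Trem2 itself, at chr17:48346401-48354147 on the plus strand of GRCm38, separated the groups. It had 38648, 37066, 53908 and 52324 normalized reads in the Trem2-WT donor libraries S28 to S31, against 4041, 4782, 5211 and 3962 in the Trem2-KO donor libraries S32 to S35. No Trem2-KO donor library came near the lowest Trem2-WT donor library, and the close pair was the highest. The mean was 45490 ± 8857 against 4499 ± 601 (SD, n = 4 each), a log2 fold change of 3.33 ± 0.14 (SE) on the log2(value + 1) scale (limma, adjusted p = 8.24e-11, at most 1.7e-09 with any 1 library left out). Trem2-WT microglia averaged 51270 ± 1868 and Trem2-KO microglia 5282 ± 824 (SD, n = 3 each), and the difference between the 2 genotype contrasts was 0.04 ± 0.21 (SE, adjusted p = 0.949). Trem2 reads were thus still counted in every knockout library, at levels well above the median gene's mean of 462.5 normalized reads, and the files do not show where in the gene they lie.

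**Figure D1:**
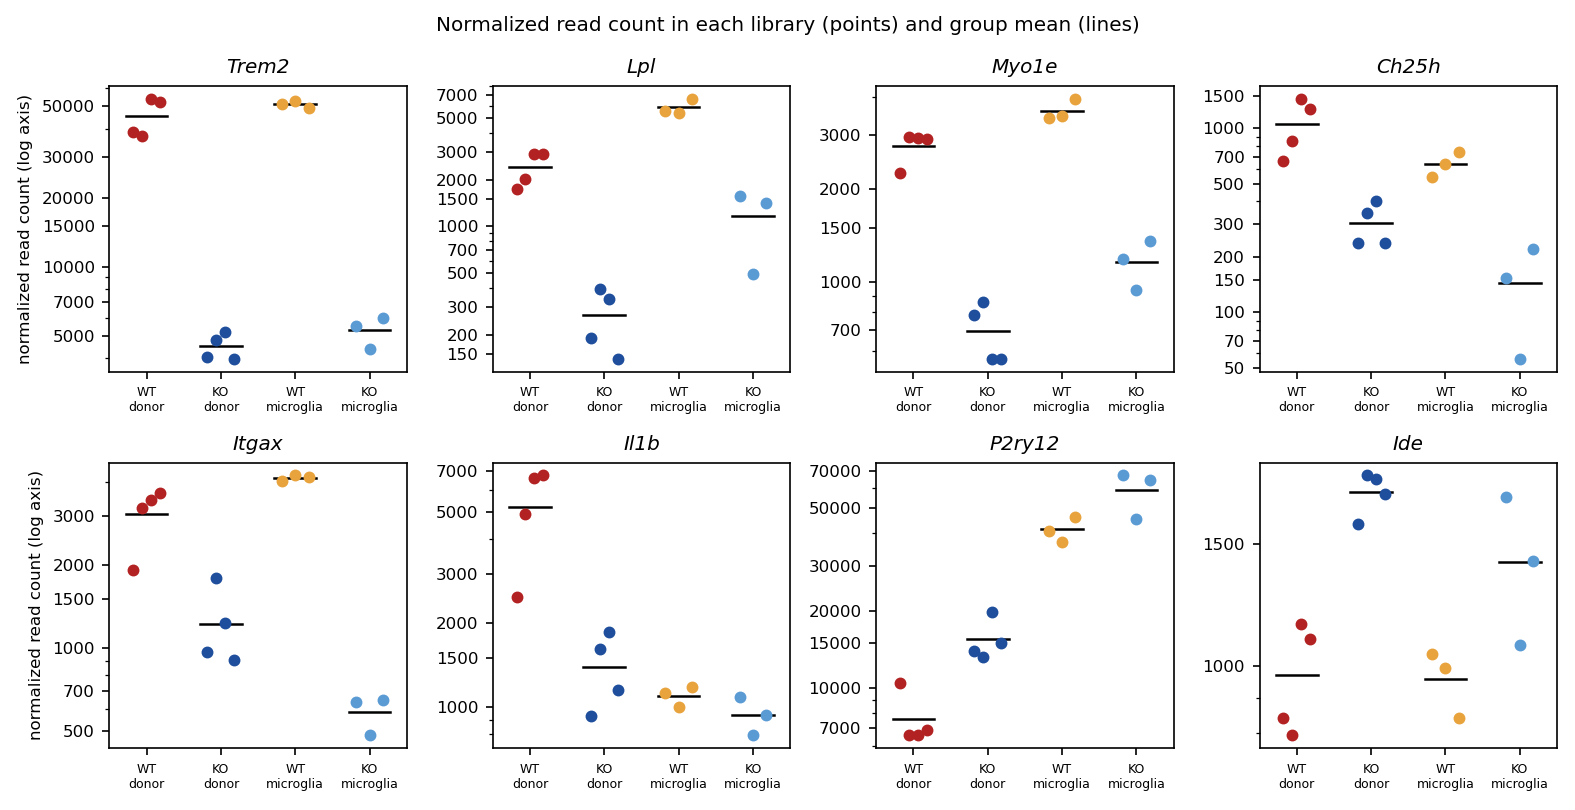
Each panel plots one gene, with the normalized read count of each library as a point on a log axis and the group mean as a line, for Trem2-WT donor cells, Trem2-KO donor cells, Trem2-WT microglia and Trem2-KO microglia. The 4 libraries of Trem2-WT donors lie above the 4 of Trem2-KO donors for Trem2, Lpl, Myo1e, Ch25h, Itgax and Il1b, and below them for P2ry12 and Ide.

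The genes around Trem2 were looked at next. Of the 18 other tested genes that start within 1 Mb of Trem2, 0 were called by limma in the transplant contrast (7.27% of all tested genes were). Among so few genes, 0 calls is near that share. Trem1, a receptor of neutrophils and monocytes, had a log2 fold change of 0.61 (adjusted p = 0.310), Trem3 of 0.26 and Treml4 of -0.01. In microglia the same genes were called lower in Trem2-WT, with log2 fold changes of -3.55 for Trem1, -3.63 for Trem3 and -1.72 for Treml4. Tested neighbours that carry clone names were called lower there too (-4.75 and -1.85). The difference between the contrasts was called for Trem1 (4.16, adjusted p = 0.000415) and Trem3 (3.89, adjusted p = 0.00669) but not for Treml4 (1.71, adjusted p = 0.133).

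Among 32 genes of the TREM2 signalling chain, 4 were higher, Trem2 itself among them, and 2 lower in Trem2-WT donor cells. The called share was 18.8%, beside 7.27% over all tested genes. The median log2 fold change was 0.08, against 0.03 over all tested genes. Tyrobp, the adaptor, had 44993, 51095, 76302 and 75651 normalized reads in the Trem2-WT donor libraries, against 42378, 45735, 55379 and 46664 in the Trem2-KO donor libraries. The groups overlapped, and the log2 fold change of 0.35 ± 0.17 did not pass the test (adjusted p = 0.189). Fgr, a SRC family kinase, had 315, 407, 492 and 460 normalized reads in Trem2-WT donor libraries and 249, 195, 183 and 194 in Trem2-KO donor libraries. Its groups did not overlap, and it rose 2.02-fold (log2 fold change 1.01 ± 0.18, adjusted p = 0.00554, at most 0.03 without S30). Smaller changes were those of Lat2, an adaptor of this pathway (0.39, adjusted p = 0.0329 and 0.112 without S31), of the phosphatase gene Ptpn6 (0.29, adjusted p = 0.0385 and 0.131 without S31, turning to -0.0184 with adjusted p = 0.923 under a correction for transcript length and GC content), of the kinase gene Lyn (-0.47, adjusted p = 0.0156 and 0.0718 without S30) and of Adam10, whose protease sheds TREM2 from the cell surface (-0.49, adjusted p = 0.0325 and 0.119 without S30). Averaging the close pair left Trem2 and Fgr as the called members, and the length and GC correction gave 2 higher and 3 lower with a list median of -0.11. The other 26 tested members lay between -0.51 and 0.46 and were not called.

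Lpl and Myo1e gave the clearest differences after Trem2. Lpl, at chr8:68880491-68907448, encodes lipoprotein lipase, which releases fatty acids from triglyceride-rich lipoproteins. It had 1724, 2026, 2901 and 2931 normalized reads in Trem2-WT donor libraries, against 190, 395, 340 and 139 in Trem2-KO donor libraries. The lowest Trem2-WT donor library was far above the highest Trem2-KO donor library, with a 9.52-fold rise (log2 fold change 3.25 ± 0.34, adjusted p = 7.67e-05, at most 0.000833 without S30). Myo1e, at chr9:70207350-70399766, encodes a myosin that links membranes to actin. It had 2255, 2950, 2944 and 2919 normalized reads in Trem2-WT donor libraries and 786, 863, 566 and 565 in Trem2-KO donor libraries. S29, S30 and S31 were almost level, S28 was lower, and the rise was 4.02-fold (log2 fold change 2.01 ± 0.17, adjusted p = 6.46e-06, at most 8.44e-05 without S29).

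Only 8 genes were called in the fit and in each of 21 alternatives run on this contrast. The fits without a microglia library were not among those 21. The 8 genes were singled out after their values were seen. They are Trem2, Lpl, Myo1e, Chst10, Mrgpre, Pms1, Ide and Trp53inp2. Chst10, a carbohydrate sulfotransferase gene, had 148, 103, 212 and 246 normalized reads in Trem2-WT donor libraries, against 36, 53, 29 and 23 in Trem2-KO donor libraries (4.88-fold, adjusted p = 0.000717). Mrgpre, an orphan receptor gene, had 204, 224, 331 and 287 in Trem2-WT donor libraries, against 50, 88, 43 and 73 in Trem2-KO donor libraries (4.16-fold, adjusted p = 0.000276). Trp53inp2, which encodes a regulator of autophagy, had 859, 1048, 791 and 811 in Trem2-WT donor libraries and 476, 554, 422 and 477 in Trem2-KO donor libraries (1.81-fold, adjusted p = 0.00477). In none of these 3 genes did the groups overlap, and for Trp53inp2 the close pair was not the highest.

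The other 2 of the 8 fell. Ide encodes insulin-degrading enzyme, a protease that also cleaves amyloid beta. It had 841, 795, 1149 and 1094 normalized reads in Trem2-WT donor libraries, against 1603, 1880, 1859 and 1769 in Trem2-KO donor libraries (log2 fold change -0.89 ± 0.16, adjusted p = 0.00693, at most 0.0223 without S34). Pms1, a mismatch repair gene, had 58, 56, 59 and 61 in Trem2-WT donor libraries, against 153, 201, 187 and 156 in Trem2-KO donor libraries (log2 fold change -1.55 ± 0.23, adjusted p = 0.00236, at most 0.0141 without S30). For Pms1 the 4 Trem2-WT donor libraries differed by only a few reads. Without S30 and S31, Cd72 (0.80, adjusted p = 0.0321), Gimap6 (-1.74, adjusted p = 0.0321) and Il18rap (-3.01, adjusted p = 0.000839) were called as well. Gimap6 lost its call when S35 was left out (adjusted p = 0.0947).

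Genes of the later stage of disease-associated microglia, which is known to depend on Trem2, rose in part. Of 30 tested members, 7 were higher and 0 lower (23.3% called, beside 7.27% over all tested genes). The median log2 fold change was 0.47, and 27 of the 30 had a positive fold change. This list and the other state lists were drawn from published microglial states, and they were chosen with earlier results of these data known. Itgax, the integrin CD11c, had 1912, 3219, 3436 and 3637 normalized reads in Trem2-WT donor libraries, against 965, 1801, 1230 and 909 in Trem2-KO donor libraries (2.51-fold, log2 fold change 1.33 ± 0.21, adjusted p = 0.00406, at most 0.0237 without S30). The groups did not overlap, though S28 and S33 lay close to each other. Ch25h, which makes 25-hydroxycholesterol, had 663, 853, 1443 and 1268 in Trem2-WT donor libraries, against 237, 345, 405 and 237 in Trem2-KO donor libraries (3.38-fold, adjusted p = 0.0085, at most 0.0435 without S30). Its rise was smaller in S28 and S29 than in the close pair.

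Capg, an actin-capping protein gene, averaged 3099 ± 838 normalized reads in Trem2-WT donor libraries and 1206 ± 154 in Trem2-KO donor libraries (2.51-fold, adjusted p = 0.0017, at most 0.0125 without S30). Cst7, an inhibitor of cathepsins, had 1079, 1665, 1922 and 1950 normalized reads in Trem2-WT donor libraries and 577, 551, 605 and 860 in Trem2-KO donor libraries (2.52-fold, adjusted p = 0.0162). Its groups did not overlap, but its call ended without S30 (adjusted p = 0.0709). Cxcl16 (0.40, adjusted p = 0.0172 and 0.0718 without S30) and the lysosomal marker Cd68 (0.38, adjusted p = 0.0342 and 0.118 without S30) rose by less. Averaging the close pair left 4 of the 7 called, while a correction for transcript length and GC content gave 9 called members.

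Some of the best known genes of this state did not pass. Spp1, osteopontin, had 4776, 10975, 11469 and 12140 normalized reads in Trem2-WT donor libraries, against 1103, 18261, 26711 and 702 in Trem2-KO donor libraries. The Trem2-KO donor libraries held both the highest and the lowest values (log2 fold change 1.07 ± 0.91, adjusted p = 0.458). Gpnmb had 3053, 4690, 7737 and 7610 in Trem2-WT donor libraries and 704, 4888, 4105 and 1317 in Trem2-KO donor libraries (1.38 ± 0.76, adjusted p = 0.249). As with Spp1, S33 and S34 were high and S32 and S35 low among Trem2-KO donors. Axl, a receptor tyrosine kinase gene, averaged 56390 ± 2934 in Trem2-WT donor libraries and 47760 ± 11950 in Trem2-KO donor libraries (0.28 ± 0.14, adjusted p = 0.215).

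Of 10 genes of the first stage of the disease-associated state, which is known to form without Trem2, 3 were higher and 0 lower (median 0.35). Apoe, the main apolipoprotein of the brain, had 3111696, 3623707, 3597175 and 3448256 normalized reads in Trem2-WT donor libraries, against 2719623, 2648221, 2452587 and 3000447 in Trem2-KO donor libraries. Its groups did not overlap, but the log2 fold change of 0.35 ± 0.17 did not pass (adjusted p = 0.201). Fth1, the ferritin heavy chain, rose 1.79-fold (adjusted p = 0.0111 and 0.0557 without S31), Lyz2, lysozyme, 1.67-fold (adjusted p = 0.0353 and 0.123 without S30) and Ctsz, a cathepsin gene, 1.32-fold (adjusted p = 0.0413 and 0.145 without S30). None of the 3 stayed called with the close pair averaged. The length and GC correction gave 3 higher members, Ctsz not among them, and lowered the list median to 0.11.

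Homeostatic microglia genes went the other way. Of 28 tested members, 7 were lower and 1 was higher (28.6% called, beside 7.27% over all tested genes). The median log2 fold change was -0.29, and only 4 had a positive one. P2ry12, the ADP receptor of surveying microglia, had 10483, 6576, 6580 and 6899 normalized reads in Trem2-WT donor libraries, against 13970, 13307, 19783 and 14994 in Trem2-KO donor libraries. S28 was the highest of the Trem2-WT donor libraries and still below every Trem2-KO donor library (log2 fold change -1.03 ± 0.18, adjusted p = 0.00542, at most 0.0274 without S30). P2ry13, a second ADP receptor gene, had 19430, 15479, 16961 and 16934 in Trem2-WT donor libraries, against 25522, 23144, 27266 and 25259 in Trem2-KO donor libraries (-0.56 ± 0.09, adjusted p = 0.00522, at most 0.0238 without S30). These 2 kept their calls with the close pair averaged. Under the correction for transcript length and GC content P2ry12 stayed called and P2ry13 did not.

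The other 5 homeostatic genes that fell lost their calls when the pair was averaged and when 1 library was left out. They are Golm1 (-0.70, adjusted p = 0.0192 and 0.0857 without S30), the TGF-beta receptor gene Tgfbr1 (-0.67, adjusted p = 0.0272 and 0.103 without S30), the lectin gene Siglech (-0.43, adjusted p = 0.0294 and 0.0964 without S31), and the transcription factor genes Mef2c (-0.58, adjusted p = 0.038 and 0.122 without S34) and Mef2a (-0.56, adjusted p = 0.0455 and 0.146 without S30). The member that rose was Gpr84, a receptor for medium-chain fatty acids, with 2959, 2510, 3007 and 3313 normalized reads in Trem2-WT donor libraries and 1770, 1416, 1200 and 2256 in Trem2-KO donor libraries (1.82-fold, adjusted p = 0.00978, at most 0.0481 without S31). TMM scaling gave 11 lower members and the length and GC correction 8. Among 17 purinergic receptor and ectonucleotidase genes, 3 fell and 0 rose (median -0.31, 17.6% called beside 7.27% over all tested genes). Those that fell were P2ry12, P2ry13 and Entpd1, which encodes CD39 (-0.43, adjusted p = 0.0233 and 0.0887 without S30). The length and GC correction left P2ry12 as the 1 member called lower.

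Lipid genes other than Lpl and Ch25h changed little or at low levels. Of 35 genes of lipid uptake, storage and breakdown, 3 were higher and 1 lower (median 0.17, 11.4% called beside 7.27% over all tested genes). Fabp3, a fatty acid binding protein gene, had only 12, 16, 24 and 16 normalized reads in Trem2-WT donor libraries, against 0, 2, 1 and 8 in Trem2-KO donor libraries (log2 fold change 2.68 ± 0.64, adjusted p = 0.0233 and 0.0889 without S30). Acsl3, an acyl-CoA synthetase gene, was lower (-0.60, adjusted p = 0.0468 and 0.147 without S30). Of 21 genes of LXR receptors and lipid efflux, 3 were higher and 0 lower (median 0.31, and -0.09 after the length and GC correction). The called share was 14.3%, beside 7.27% over all tested genes. Nr1h3, the gene of LXR alpha, had 149, 124, 141 and 140 in Trem2-WT donor libraries, against 55, 63, 47 and 29 in Trem2-KO donor libraries (2.92-fold, adjusted p = 0.0233 and 0.0824 without S30). Its groups were far apart for so low a count, and without both S30 and S31 the log2 fold change was 1.52, against 1.55 with them, but not called (adjusted p = 0.231).

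Pltp, a phospholipid transfer protein gene, was 1.47-fold higher (adjusted p = 0.0391 and 0.142 without S30). Of 22 genes of cholesterol synthesis, 0 were higher and 2 lower (9.09% called beside 7.27% over all tested genes), although the median was 0.12. Among those that fell was Hmgcs1, an enzyme early in the pathway (-0.53, adjusted p = 0.0373 and 0.117 without S30), and its difference from the microglia contrast was called (-0.97, adjusted p = 0.0211).

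Inflammatory mediators formed one of the larger groups that rose. Of 41 cytokine, chemokine and NF-kB genes, 11 were higher and 1 lower (median 0.37, 29.3% called beside 7.27% over all tested genes). Averaging the close pair left 4 higher and 1 lower. Il1b, interleukin-1 beta, had 2489, 4907, 6623 and 6763 normalized reads in Trem2-WT donor libraries, against 928, 1614, 1855 and 1153 in Trem2-KO donor libraries (3.61-fold, log2 fold change 1.85 ± 0.31, adjusted p = 0.00477, at most 0.0238 without S30). All 4 Trem2-WT donor libraries were above all 4 of the Trem2-KO donors, the close pair by the most. Ccl4 had 1506, 3330, 4611 and 4562 in Trem2-WT donor libraries and 513, 1254, 1379 and 542 in Trem2-KO donor libraries (3.84-fold, adjusted p = 0.00748, at most 0.0414 without S30). The related chemokine gene Ccl3 had 1055, 1797, 1885 and 1841 in Trem2-WT donor libraries, against 368, 963, 1027 and 400 in Trem2-KO donor libraries (2.59-fold, adjusted p = 0.0305 and 0.107 without S30). Ccl3 and Ccl4 shared their order among Trem2-KO donors, with S33 and S34 high and S32 and S35 low.

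Cd14, the co-receptor for lipopolysaccharide, rose 1.81-fold (adjusted p = 0.00463, at most 0.0238 without S30), and the chemokine gene Cxcl14 2.14-fold (adjusted p = 0.00896, at most 0.0461 without S31). Cxcl2, a chemokine that draws neutrophils, had 403, 672, 542 and 589 normalized reads in Trem2-WT donor libraries, against 143, 297, 290 and 154 in Trem2-KO donor libraries (2.59-fold, adjusted p = 0.0383 and 0.114 without S31). Its close pair was not the highest. Ptgs2, cyclooxygenase 2, was 7.01-fold higher at a low level (adjusted p = 0.0293 and 0.109 without S30). The NF-kB subunit genes Relb (0.66, adjusted p = 0.0273 and 0.11 without S30) and Nfkb2 (0.67, adjusted p = 0.0322 and 0.114 without S31) rose by less. Tlr4, the lipopolysaccharide receptor, was the member that fell, with 2653, 2182, 1634 and 1906 in Trem2-WT donor libraries and 2927, 3418, 5382 and 3660 in Trem2-KO donor libraries (-0.86 ± 0.16, adjusted p = 0.00883, at most 0.0435 without S30).

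Immediate early genes, which are switched on within minutes of stimulation and also of tissue handling, had the highest median of the pathway lists, 0.69. Among the 29, 8 were higher and 0 lower (27.6% called, beside 7.27% over all tested genes). Zfp36, which encodes an mRNA-destabilizing protein, had 13675, 19020, 15923 and 15323 normalized reads in Trem2-WT donor libraries, against 6767, 11065, 7894 and 7197 in Trem2-KO donor libraries (1.97-fold, adjusted p = 0.0102, at most 0.0435 without S30). It was as high in S28 and S29 as in the close pair, and it alone kept its call with the pair averaged. Junb (1.94-fold, adjusted p = 0.0258 and 0.0992 without S30), Fos (1.87-fold, adjusted p = 0.033 and 0.107 without S30) and the orphan nuclear receptor gene Nr4a1 (2.70-fold, adjusted p = 0.0237 and 0.101 without S30) did not. After the length and GC correction 2 of the 29 were higher and the median was 0.30.

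**Figure D2:**
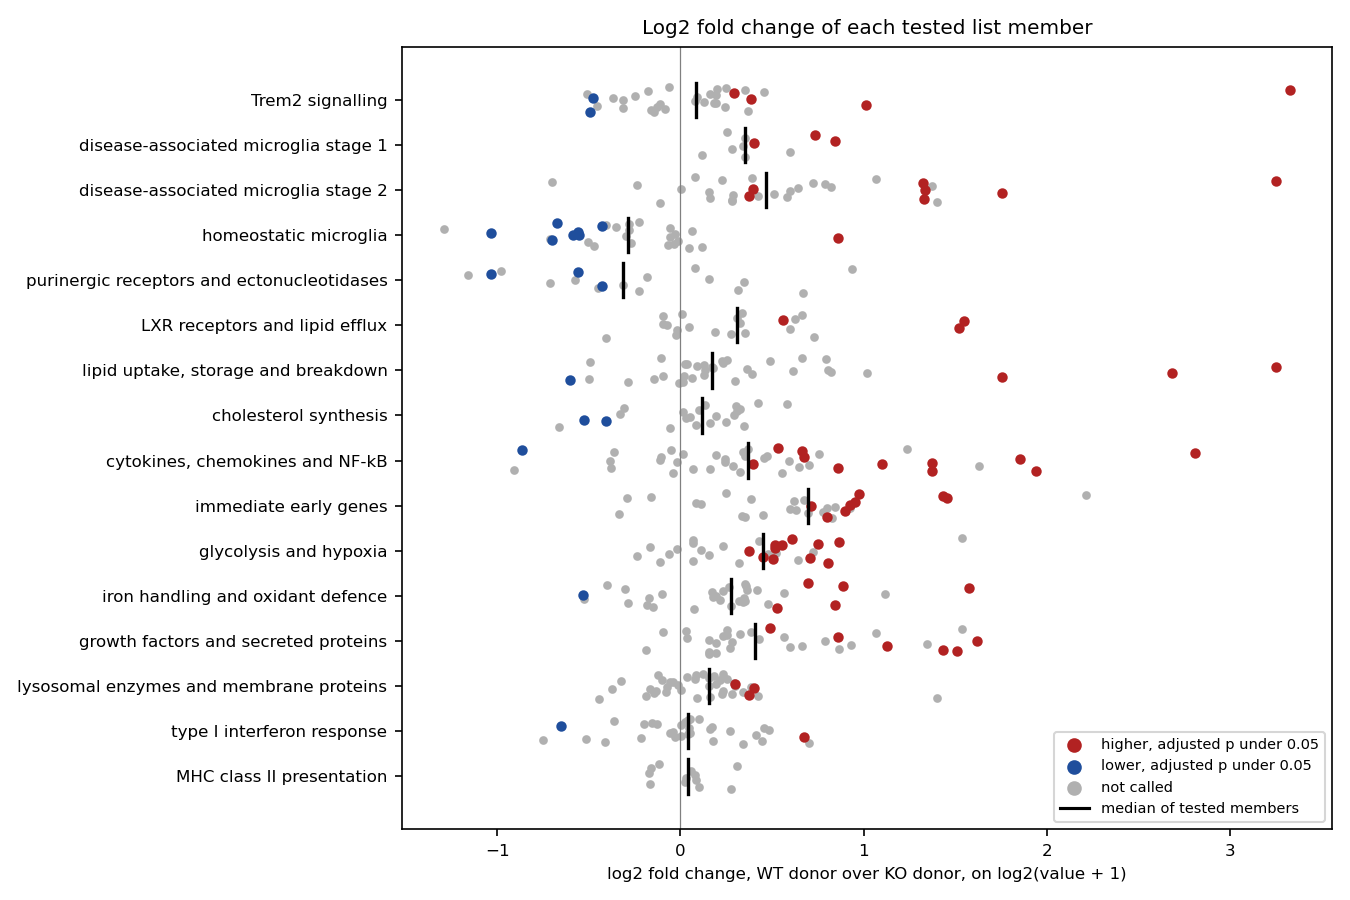
Each dot is a tested gene of the named list, placed by its log2 fold change between Trem2-WT and Trem2-KO donor libraries on the log2(value + 1) scale, in red if called higher, in blue if called lower and in grey if not called; black lines are list medians. The medians run from -0.31 for purinergic genes to 0.69 for immediate early genes, and Trem2, Lpl and Ptgs2 lie farthest to the right.

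Glycolysis and hypoxia genes gave the largest share of called members among the pathway lists, 37.9%, beside 7.27% over all tested genes. Among the 29, 11 were higher and 0 lower, with a median of 0.45. Aldoa, aldolase A, had 16831, 18285, 26651 and 26433 normalized reads in Trem2-WT donor libraries, against 12648, 12889, 11091 and 12783 in Trem2-KO donor libraries (1.75-fold, adjusted p = 0.00477, at most 0.0238 without S30). The Trem2-KO donor libraries were nearly level, and the close pair stood well above S28 and S29. Slc16a3, which exports lactate, had 1515, 1652, 1877 and 1982 in Trem2-WT donor libraries and 977, 1186, 746 and 972 in Trem2-KO donor libraries (1.82-fold, adjusted p = 0.00236, at most 0.0158 without S30). Pkm (1.68-fold), Gapdh (1.63-fold), Pgam1 (1.47-fold) and Eno1 (1.42-fold) also rose, with adjusted p between 0.00575 and 0.00953 and none above 0.0481 with 1 library left out. With the close pair averaged 6 members stayed higher. After the length and GC correction 4 were higher and 1 lower, with a median of 0.20.

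Of 33 genes of iron handling and oxidant defence, 5 were higher and 1 lower (median 0.27, 18.2% called beside 7.27% over all tested genes). Txnrd1, thioredoxin reductase, had 1368, 1221, 1493 and 1378 normalized reads in Trem2-WT donor libraries, against 899, 960, 826 and 698 in Trem2-KO donor libraries (1.62-fold, adjusted p = 0.00342, at most 0.0217 without S30). It was the member that stayed called with the pair averaged. Slc7a11, the cystine transporter, had 56, 125, 164 and 140 in Trem2-WT donor libraries and 29, 31, 31 and 69 in Trem2-KO donor libraries (2.98-fold, adjusted p = 0.0172 and 0.0782 without S30), with S28 below S35. Srxn1, sulfiredoxin, rose 1.85-fold (adjusted p = 0.0233 and 0.0957 without S30) and Cat, catalase, 1.44-fold (adjusted p = 0.0232 and 0.0827 without S30). Ncoa4, the receptor that carries ferritin to lysosomes, fell (-0.53, adjusted p = 0.0233 and 0.0822 without S31), while Fth1, its cargo, was higher.

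Genes of secreted proteins rose in 6 of 32 cases, with 0 lower and a median of 0.41. The called share was 18.8%, beside 7.27% over all tested genes. With the close pair averaged 1 was higher, and after the length and GC correction 5 were higher and 1 lower with a median of 0.21. Complement C3 had 1798, 1852, 2082 and 2200 normalized reads in Trem2-WT donor libraries, against 929, 737, 492 and 685 in Trem2-KO donor libraries (2.85-fold, log2 fold change 1.51 ± 0.22, adjusted p = 0.00195, at most 0.0132 without S30). Every Trem2-WT donor library was above every Trem2-KO donor library, and S28 and S29 were nearly as high as the close pair. C4b, complement C4, was 2.70-fold higher with overlap (adjusted p = 0.0135 and 0.0684 without S30). Mmp12, macrophage elastase, had 782, 827, 1118 and 1101 in Trem2-WT donor libraries and 237, 431, 356 and 244 in Trem2-KO donor libraries (3.07-fold, adjusted p = 0.0259 and 0.0957 without S30). Osm, oncostatin M, rose 1.82-fold (adjusted p = 0.0153 and 0.0709 without S30).

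Outside those lists, Wfdc17, a secreted protease inhibitor gene of activated macrophages, had 5375, 9576, 17745 and 17623 normalized reads in Trem2-WT donor libraries, against 2617, 4190, 5114 and 2550 in Trem2-KO donor libraries (3.26-fold, adjusted p = 0.00641, at most 0.0341 without S30). The groups did not overlap, and S28 stood close to S34. Of 48 actin, myosin and adhesion genes, 8 were higher and 1 lower (median 0.25, 18.8% called beside 7.27% over all tested genes). The list had 3 higher when the close pair was averaged, and 6 higher and 2 lower with a median of 0.06 after the length and GC correction. Lgals3, galectin 3, was among the 8 higher with 4003, 4758, 8878 and 8921 in Trem2-WT donor libraries and 1794, 3012, 3157 and 1660 in Trem2-KO donor libraries (2.70-fold, adjusted p = 0.0207 and 0.0886 without S30). Vim, vimentin, rose 1.65-fold (adjusted p = 0.0379 and 0.142 without S30).

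Several other pathways had shares of called genes near or below that of all tested genes. Of 41 genes of lysosomal enzymes and membrane proteins, 3 were higher and 0 lower, a share of 7.32% beside 7.27% over all tested genes, and TMM scaling turned this to 0 higher and 2 lower. Of 32 interferon response genes, 1 was higher and 1 lower (0 and 1 under TMM scaling), of 29 phagocytic receptor genes 1 and 1, and of 36 cell cycle genes 0 and 1, shares of 6.25%, 6.90% and 2.78%. The 12 genes of MHC class II and the 17 of MHC class I presentation gave 0 calls by limma, also with the close pair averaged. TGF-beta signalling lay above that share, with 3 of 20 genes lower (beside 3.34% lower over all tested genes) and 0 higher, although the list median was 0.12. With the close pair averaged 0 of the 20 were called.

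Promoters of members that rose were read from RefSeq on GRCm38.p6, over the 250 bases before the annotated start, and searched on both strands for 5 short motifs: TGANTCA (AP-1), TGACGTCA (the cyclic AMP response element, CRE), GGGA, any base and TTTCC (NF-kB), TGACNNNGC (antioxidant response element) and GAGGAAGT (PU.1). AP-1 letters stood in 9.2% of the 348 promoters found for genes called higher, in 6.17% of the 308 for genes called lower and in 5.41% of the 9045 for all tested genes. For the other motifs the promoters of genes called higher were near or below all tested genes, with 3.45% beside 3.06% for CRE, 0.575% beside 0.509% for NF-kB, 12.9% beside 14.2% for the antioxidant response element and 2.30% beside 3.28% for PU.1. In the cytokine, chemokine and NF-kB list 7 of 28 promoters held AP-1 letters and 14.3% NF-kB letters, beside 5.41% and 0.509% for all tested genes. CRE letters stood in 3 of 26 promoters of immediate early genes, 11.5%, beside 3.06% for all, while AP-1 letters stood in 3.85% of them. These shares are descriptions, and 2 motifs can overlap. The 4 promoters below are shown because their genes rose and they hold the letters named, in capitals, on the strand of the gene: TGAGTCA in Itgax (chr7:128129300-128129549, plus strand) and in 2 places in Srxn1 (chr2:152105274-152105523, plus strand), GGGAATTTCC in Cxcl2 (chr5:90903649-90903898, plus strand) and TGACGTCA in Ch25h (chr19:34475149-34475398, minus strand).
Itgax: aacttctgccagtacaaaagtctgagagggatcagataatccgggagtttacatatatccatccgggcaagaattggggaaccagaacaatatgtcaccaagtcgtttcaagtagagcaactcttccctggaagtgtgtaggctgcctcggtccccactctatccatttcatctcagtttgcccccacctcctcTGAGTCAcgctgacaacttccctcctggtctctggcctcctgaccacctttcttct
Cxcl2: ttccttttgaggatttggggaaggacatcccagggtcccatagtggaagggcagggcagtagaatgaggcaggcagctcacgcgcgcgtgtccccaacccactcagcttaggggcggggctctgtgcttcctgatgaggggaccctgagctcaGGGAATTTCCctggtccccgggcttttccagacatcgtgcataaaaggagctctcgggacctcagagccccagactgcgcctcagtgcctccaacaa
Srxn1: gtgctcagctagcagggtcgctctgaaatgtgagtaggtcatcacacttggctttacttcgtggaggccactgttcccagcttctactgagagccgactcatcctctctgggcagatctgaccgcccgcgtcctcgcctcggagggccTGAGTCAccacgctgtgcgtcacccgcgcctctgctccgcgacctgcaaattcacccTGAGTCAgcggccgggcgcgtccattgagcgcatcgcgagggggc
Ch25h: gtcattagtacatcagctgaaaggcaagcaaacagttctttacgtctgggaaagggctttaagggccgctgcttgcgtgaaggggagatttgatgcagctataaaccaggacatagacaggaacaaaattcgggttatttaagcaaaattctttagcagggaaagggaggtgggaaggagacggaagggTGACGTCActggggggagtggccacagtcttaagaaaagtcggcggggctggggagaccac

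Falls were smaller than rises. The 15 largest falls among well-measured genes, with no overlap between groups, ran from -1.06 for Btaf1 to -0.77 for Ssh2. Btaf1, a regulator of the TATA-binding protein, had 542, 449, 517 and 499 normalized reads in Trem2-WT donor libraries, against 789, 1057, 1441 and 997 in Trem2-KO donor libraries (-1.06 ± 0.17, adjusted p = 0.00477, at most 0.0217 without S30). Tlr7, the receptor for single-stranded RNA, had 3042, 2415, 2296 and 2172 in Trem2-WT donor libraries and 3212, 4133, 5850 and 4171 in Trem2-KO donor libraries (-0.79 ± 0.15, adjusted p = 0.00897, at most 0.0456 without S31). For both genes S34 was the highest library. Pkn2 and Klhl9 also held with any 1 library left out (adjusted p at most 0.0435 without S30).

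Nr1d2, a repressor of the circadian clock, had 810, 563, 400 and 370 normalized reads in Trem2-WT donor libraries and 824, 963, 1433 and 998 in Trem2-KO donor libraries (-1.02 ± 0.24, adjusted p = 0.0232 and 0.0953 without S30). S28 and S32 were almost equal. Ugcg, glucosylceramide synthase, had 1049, 885, 593 and 631 in Trem2-WT donor libraries, against 1126, 1491, 1641 and 1382 in Trem2-KO donor libraries (-0.86 ± 0.17, adjusted p = 0.0105 and 0.0539 without S31). The calls of Nufip2, Nrip1, Lpar6, Ube3a, Ggta1 and Ssh2 likewise ended without S30 or S31, with adjusted p up to 0.13 (Ssh2, without S31).

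Called genes differed in transcript length and base composition as well as in function. The longest annotated transcript had a median of 2645 bases for genes called higher and 4749 for genes called lower, beside 3394 for all tested genes. Median GC content was 54.7% for higher and 43.0% for lower genes, beside 49.7% for all. In the decile of lowest GC 6 genes were higher and 115 lower, and in the decile of highest GC 113 were higher and 1 lower. S34 carried the steepest gradient, with a median deviation from the 8-library mean of 0.64 in the lowest GC decile and -0.54 in the highest, while S30 had -0.28 in the lowest and 0.32 in the highest. Zinc finger genes by symbol, whose transcripts are often poor in GC, numbered 361, of which 42 were lower and 2 higher, with a median of -0.39. The share called lower was 11.6%, beside 3.34% over all tested genes.

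When each library was corrected for transcript length and GC content, a step chosen after seeing the data, 485 genes were called (4.32%), 269 higher (2.4%) and 216 lower (1.93%), and 282 of them were among the 816. Of the zinc finger genes 9 were then lower, while their median was still -0.26. Of the 816 genes, 90 stayed called under both this correction and the averaged pair, 64 higher and 26 lower. Lpl (3.47), Myo1e (1.85), Itgax (1.14), Ch25h (1.65), Il1b (1.94), C3 (1.26), P2ry12 (-0.61), Ide (-0.66) and Tlr7 (-0.46) kept their calls and most of their log2 fold change under the correction. Slc16a3 (0.49, adjusted p = 0.0554), Eno1 (0.11, adjusted p = 0.46), Cd68 (0.12, adjusted p = 0.444), Pltp (0.17, adjusted p = 0.287) and Ctsz (adjusted p = 0.984) did not.

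**Figure D3:**
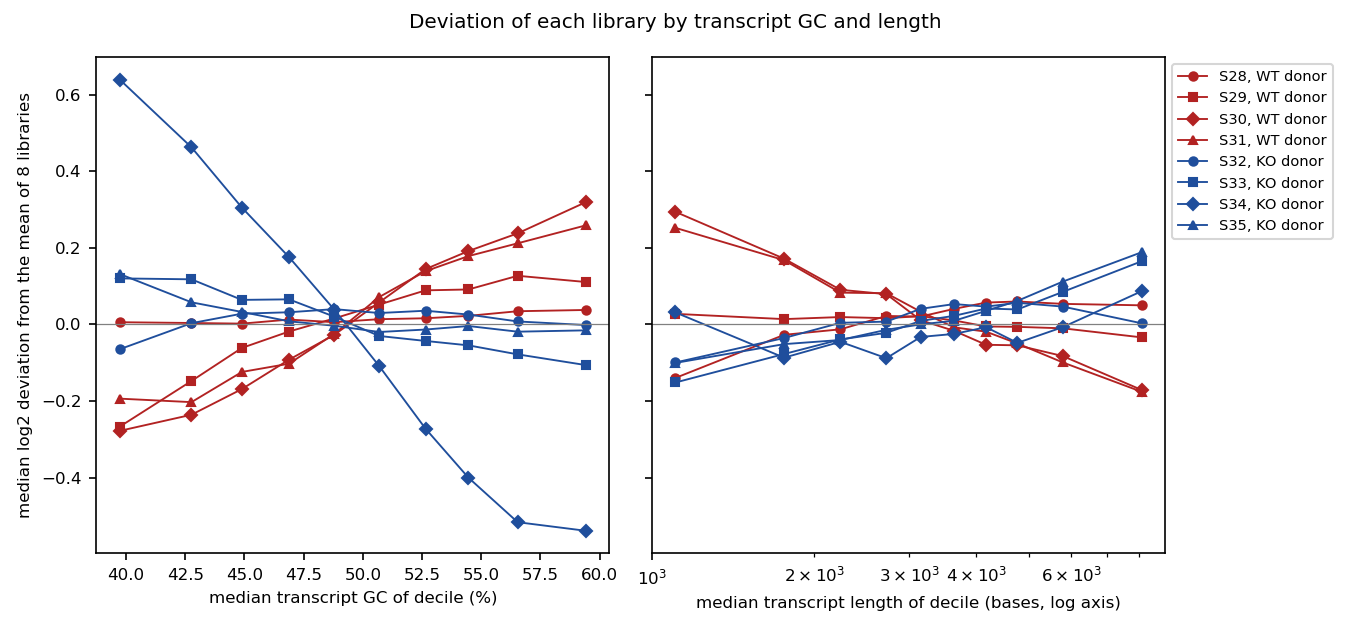
Each line is a transplant library, with the median log2 deviation of a decile of genes from the mean of the 8 libraries plotted against the median transcript GC content (left) or length (right, log axis) of the decile; red lines are Trem2-WT donors and blue lines Trem2-KO donors. S34 falls from 0.64 to -0.54 with rising GC content, S30 rises from -0.28 to 0.32, and S30 and S31 fall with length while S33 and S35 rise.

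Among markers of cells that the sort should not hold, those of the choroid plexus had the largest median difference between the donor genotypes. Limma called 0 of 6 neuron markers (median log2 fold change 0.16) and 0 of 6 erythroid and platelet markers. The erythroid and platelet median was nonetheless 2.71. The summed signal of that list was 346, 528, 2221 and 2088 in Trem2-WT donor libraries, against 925, 174, 232 and 71 in Trem2-KO donor libraries, with overlap. Among 14 astrocyte markers limma called 3, all of them rises (median 0.61), and 1 with the close pair averaged. The called share was 21.4%, beside 7.27% over all tested genes. In bulk RNA, fewer cells of a type and less RNA per cell cannot be told apart. By the rule for the largest changes, Ttr and Enpp2 rose the most, and both are genes that the choroid plexus epithelium expresses at high levels. Ttr, transthyretin, had 1817, 10375, 7179 and 6943 normalized reads in Trem2-WT donor libraries, against 171, 128, 40 and 1657 in Trem2-KO donor libraries (log2 fold change 4.81 ± 0.90, adjusted p = 0.0082, at most 0.0387 without S30). Enpp2, autotaxin, had 1272, 5179, 4343 and 4435 in Trem2-WT donor libraries and 51, 110, 31 and 1113 in Trem2-KO donor libraries (4.81 ± 0.87, adjusted p = 0.00664, at most 0.0331 without S30). In both, S35 stood above the other Trem2-KO donor libraries and near S28.

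Of 15 tested choroid plexus genes, a list chosen after these values were seen, 9 were higher and 0 lower (median 3.65). The called share was 60.0%, beside 7.27% over all tested genes, and the choice of list bears on it. Averaging the close pair left 5 higher, and leaving it out left 0 with the same median of 3.65. Their summed signal was 3530, 17123, 12798 and 12641 in the Trem2-WT donor libraries S28 to S31 and 279, 286, 119 and 3190 in the Trem2-KO donor libraries S32 to S35. Kl, klotho, had 73, 240, 167 and 194 normalized reads in Trem2-WT donor libraries, against 2, 3, 0 and 47 in Trem2-KO donor libraries. Folr1, a folate receptor gene, had 39, 143, 143 and 159 in Trem2-WT donor libraries, against 2, 0, 0 and 23 in Trem2-KO donor libraries. None of the 16 listed markers was at 0 in all 8 libraries. Their part in the other differences was not tested.

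Of 8 tested oligodendrocyte markers 6 were higher and 0 lower (median 1.74, 75.0% called beside 7.27% over all tested genes). None stayed called with the close pair averaged. Aplp1, an amyloid precursor-like protein gene that was not on that list, had 274, 320, 6109 and 5719 normalized reads in Trem2-WT donor libraries and 193, 248, 144 and 209 in Trem2-KO donor libraries (adjusted p = 0.0368 and 0.143 without S30). It was high in S30 and S31 and near the Trem2-KO donor libraries in S28 and S29. Mag, a myelin glycoprotein gene of the list, was called too (adjusted p = 0.0383 and 0.146 without S30). Mbp and Mobp were less tied to the close pair. Mbp, myelin basic protein, had 3379, 7042, 5454 and 5373 in Trem2-WT donor libraries, against 1343, 2985, 2329 and 2136 in Trem2-KO donor libraries (2.43-fold, adjusted p = 0.0155 and 0.0633 without S30). Mobp had 568, 1081, 1061 and 1131 in Trem2-WT donor libraries and 71, 420, 462 and 156 in Trem2-KO donor libraries (4.27-fold, adjusted p = 0.04 and 0.123 without S30).

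Of 16 endothelial and mural markers 5 were higher and 0 lower (median 1.47, 31.2% called beside 7.27% over all tested genes). But 1 was higher with the close pair averaged and 0 without it (median 0.58). The sum of the 16 markers was 571, 1063, 2802 and 2726 in Trem2-WT donor libraries against 506, 422, 731 and 652 in Trem2-KO donor libraries. S28 thus lay within the Trem2-KO donor range. Cspg4, the proteoglycan NG2, had 31, 84, 78 and 84 normalized reads in Trem2-WT donor libraries and 3, 0, 4 and 7 in Trem2-KO donor libraries (adjusted p = 0.00226, at most 0.0141 without S30). In microglia the log2 fold change of Cspg4 was 4.14 (adjusted p = 0.00135), and the difference between the contrasts was 0.06 (adjusted p = 0.983). It thus differed by Trem2 genotype in both sets of libraries.

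Some leukocyte markers were called. Of 16 tested neutrophil markers 0 were called by limma in either direction, with a summed signal of 25281 to 33193 in Trem2-WT donor libraries and of 17217 to 39170 in Trem2-KO donor libraries. Of 15 T and NK cell markers 0 were called although the median was -1.22: their sum was 624, 1720, 5002 and 4879 in Trem2-WT donor libraries, against 7598, 3296, 3127 and 6734 in Trem2-KO donor libraries, with overlap. Of 16 monocyte markers 2 were higher (12.5%), of 14 border-associated macrophage markers 1 (7.14%), and of 12 dendritic cell markers 2 were lower (16.7%), beside 7.27% called over all tested genes. With the close pair averaged, the border-associated macrophage marker was the 1 still called. The 10 microglia markers summed to between 618424 and 650997 in Trem2-WT donor libraries and between 591055 and 743654 in Trem2-KO donor libraries.

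**Figure D4:**
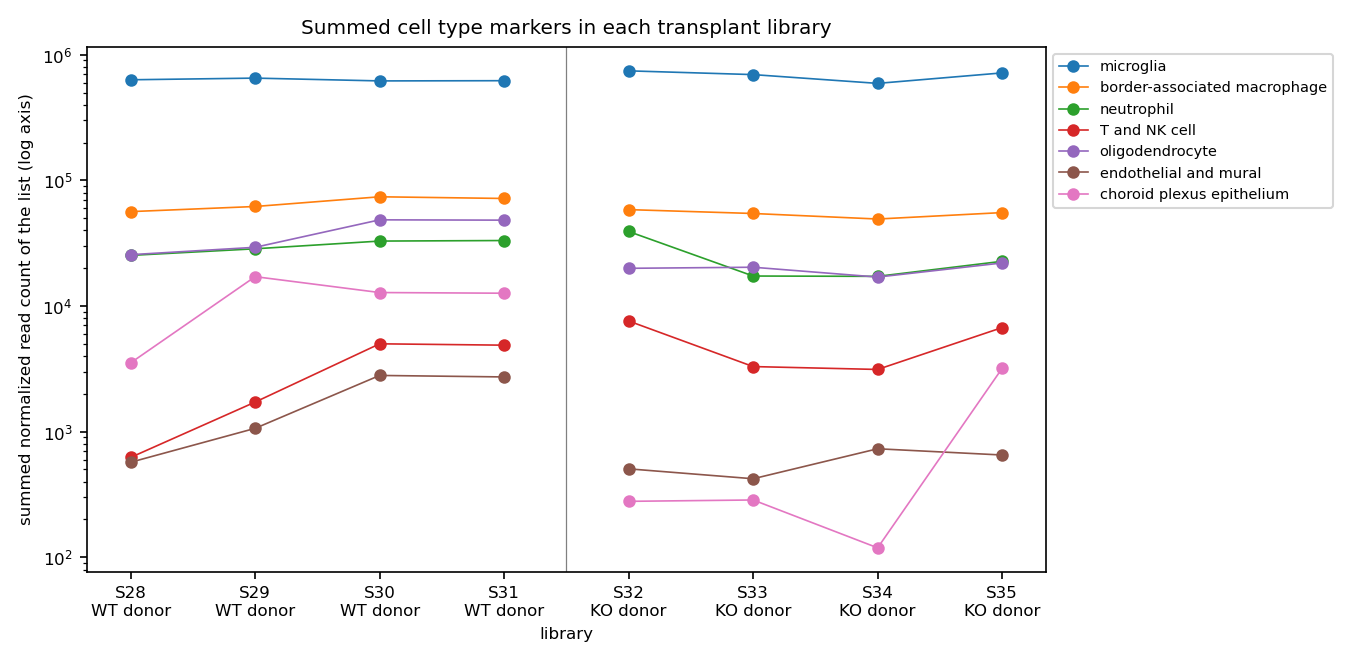
Each line joins the summed normalized read counts (log axis) of one cell type list over the 4 Trem2-WT donor libraries on the left and the 4 Trem2-KO donor libraries on the right. Choroid plexus markers lie between 3530 and 17123 on the left and between 119 and 3190 on the right, while the microglia sum stays between 591055 and 743654 in all 8 libraries.

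The Trem2 contrast in resident 5XFAD microglia, in libraries not shared with the transplant contrast, called 313 genes higher and 296 lower (5.43%, or 2.79% higher and 2.64% lower). Their total of 609 was 3714 without S26 and between 296 and 335 without any other of the 6 microglia libraries. Of the 441 genes higher in Trem2-WT donor cells, 66 were called higher in Trem2-WT microglia (14.97% of the 441 and 21.1% of the 313) and 17 lower. By sign alone 66.7% of the 441 were positive in microglia, beside 50.7% of all tested genes. Of the 375 genes lower in Trem2-WT donor cells, 7 were called lower in microglia (1.87% of the 375 and 2.36% of the 296) and 4 higher. By sign 66.4% of the 375 were negative in microglia, beside 49.3% of all tested genes. The microglia contrast also followed transcript GC content, with a median log2 fold change of -0.35 in the lowest decile and 0.14 in the highest. The part of GC content in the agreement of signs was not tested. Across all tested genes the 2 sets of log2 fold changes had a Pearson r of 0.16, given as a description, since genes are not independent.

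The difference between the 2 contrasts was called for 355 genes (3.16%), 239 of them with a more positive value in the transplant (2.13%) and 116 with a more negative one (1.03%), and in 254 of the 355 the microglia fold change was the larger in size. The count was 1705 without S26, 656 without S28, 225 without S30, 220 without S31, and 185, 202, 226 and 203 without S22, S23, S25 and S27. Ank, a pyrophosphate transporter gene of the disease-associated state, had 1985, 1956, 2007 and 1981 normalized reads in Trem2-WT donor libraries and 2292, 2491, 1944 and 1888 in Trem2-KO donor libraries, with almost no spread among Trem2-WT donors. In microglia it had 9526, 9553 and 10630 in Trem2-WT and 1481, 1205 and 1424 in Trem2-KO libraries. The difference between the contrasts was -2.97 ± 0.17 (SE, adjusted p = 1.04e-08). Axl likewise differed in microglia (14210 ± 73.2 in Trem2-WT and 3244 ± 81.2 in Trem2-KO, SD, n = 3 each) but not in transplanted cells, with a difference between contrasts of -1.85 (adjusted p = 0.000117). Itgax differed in both, by less in the transplant (-1.49, adjusted p = 0.0147). For Lpl (0.75, adjusted p = 0.467), Myo1e (0.37, adjusted p = 0.481), Ch25h (-0.59, adjusted p = 0.573) and Cst7 (-1.36, adjusted p = 0.0989) the contrasts were not shown to differ.

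Over the later disease-associated list, 13 of 30 genes were higher in Trem2-WT microglia (median log2 fold change 1.14), beside 2.79% of all tested genes. In transplanted cells 7 of 30 were higher (median 0.47), beside 3.93% of all tested genes. The difference was called for 6 of the 30, beside 3.16% of all tested genes. C3 went in opposite directions: in microglia it had 289, 426 and 347 normalized reads in Trem2-WT and 785, 642 and 1103 in Trem2-KO libraries (log2 fold change -1.23, adjusted p = 0.00565), and the difference between contrasts was 2.74 (adjusted p = 0.000117). Lgals3 (2.51, adjusted p = 0.00827), Vim (1.73, adjusted p = 0.00343), Wfdc17 (2.39, adjusted p = 0.00729), Slc7a11 (2.38, adjusted p = 0.016) and Nr1h3 (2.21, adjusted p = 0.0372) also had a more positive contrast in the transplant.

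Among the 8 smallest p-values of this difference were genes of neutrophils and monocytes. S100a9, an abundant neutrophil protein, had 743, 720 and 1199 normalized reads in Trem2-WT microglia, against 26110, 9615 and 29465 in Trem2-KO microglia, and 2057, 3977, 3775 and 3824 in Trem2-WT donor libraries, against 5302, 1905, 3039 and 2725 in Trem2-KO donor libraries. The 2 donor groups overlapped, and the difference between contrasts was 4.62 (adjusted p = 0.000112). Wfdc21 (4.83), Pglyrp1 (4.13) and Ifitm6 (3.87) had the same shape. Of the 16 neutrophil markers, 13 were lower in Trem2-WT microglia, beside 2.64% of all tested genes. In the transplant 0 of the 16 were called, beside 7.27% of all tested genes. Ifitm2 (2.00, adjusted p = 1.38e-05) and the immune receptor genes Cd300ld (2.35, adjusted p = 0.000112) and Pirb (1.62, adjusted p = 0.000112) were higher in Trem2-WT donor cells and lower in Trem2-WT microglia. The part of neutrophil content in these differences was not tested.

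**Figure D5:**
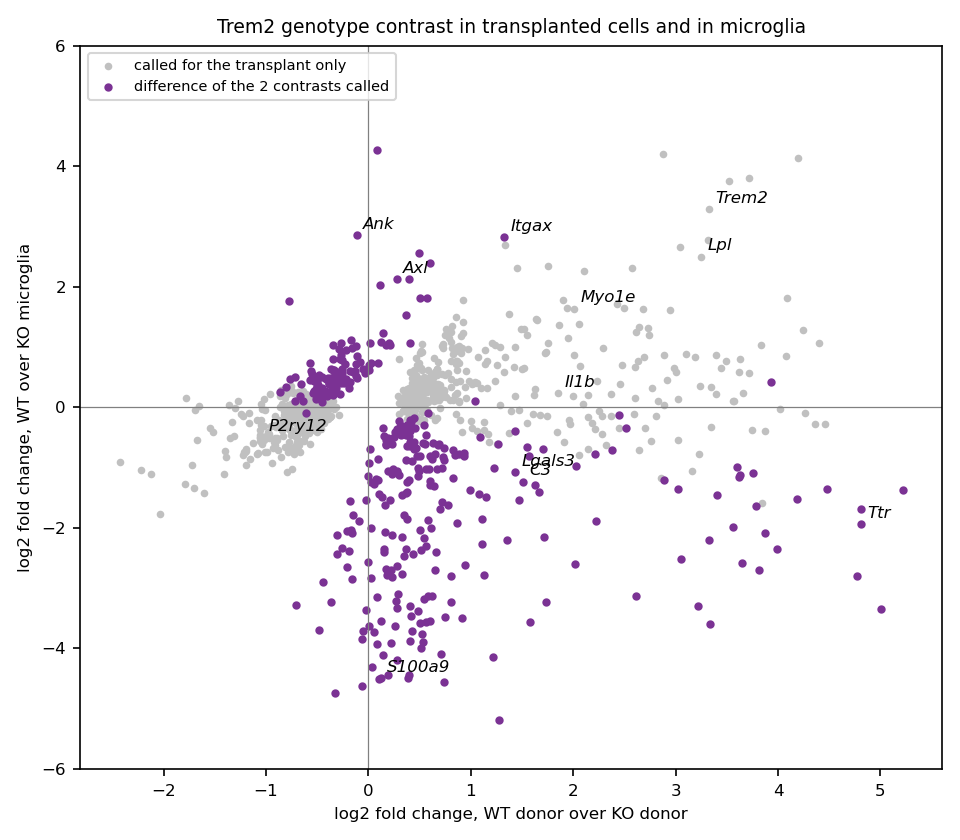
Each point is a gene called in the transplant contrast or for the difference between contrasts, with the log2 fold change of Trem2-WT over Trem2-KO donor libraries on the x axis and of Trem2-WT over Trem2-KO 5XFAD microglia on the y axis; purple points are those whose difference between contrasts was called. Trem2 lies at 3.33 on the x axis and 3.29 on the y axis, Ank near 0 on the x axis and 2.86 on the y axis, and S100a9 near -4.50 on the y axis.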

How the data were processed

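RNA of sorted brain myeloid cells was sequenced in 17 libraries. The submitters' processing notes name bcl2fastq, STAR 2.5.2b, HTSeq, RSEM and DESeq2 3.17, with mm10 and GRCm38.p6, and give no role or order for them here. The deposited table holds 1 signal value per gene and library. Within a tolerance of 0.02 of a read, between 99.985% and all of a library's values are whole reads divided by 1 size factor, so the reads were recovered for count tests. The table had 0 sample columns that were left unused.

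Genes that reached 10 in at least 3 of the 8 transplant libraries were tested with limma 3.58.1 (R 4.3.3) on log2(value + 1), with 1 mean per group over all 17 libraries, an intensity trend, 2-sided tests and Benjamini-Hochberg adjustment over all 11220 genes. Because a pseudocount is added, fold changes of low genes are understated. Contrasts were the Trem2 genotype in transplanted cells, the same in 5XFAD microglia and their difference. The count test, edgeR 4.0.16 on recovered reads, called 397 genes higher and 585 lower. DESeq2 1.42.0, other scalings, filters and pseudocounts, array weights, left-out libraries, the averaged pair, the 8 libraries alone and a correction for transcript length and GC content were alternatives. Only the limma fit was tested on simulated counts. These were drawn independently for each library, so that test does not cover a close pair such as S30 and S31.

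Named were Trem2 and its partners, the 15 largest rises and falls among called genes without overlap and with a mean above the median, called members of the lists, and the 8 smallest p-values of the difference; others are said to be chosen after their values were seen. Members and lists were chosen with earlier results of these data known. Some genes are not reported here.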

Additional observations from a re-analysis of the deposited data

Results flagged for a closer look

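In 18 of 216 groups of 4 libraries checked over the named genes, 1 library stood apart from the other 3 by Dixon's criterion, where chance flags about 1 in 20 groups. Among Trem2-WT donors, S28 was the lowest for Myo1e (2255 normalized reads), Spp1 (4776), Ccl3 (1055), Folr1 (39.1), Mobp (568), Cspg4 (31.3) and S100a9 (2057), and the highest for P2ry12 (10483). S29 was the highest for Hmgcs1 (399). Among Trem2-KO donors, S35 was the highest for Slc7a11 (69.3), Ttr (1657), Enpp2 (1113), Kl (47.4) and Folr1 (22.7). S34 was the lowest for Aldoa (11091) and Relb (741) and the highest for Lpar6 (5329), and S32 was the lowest for Fth1 (74721).

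For 29 named genes the Trem2 contrast in transplanted cells differed from that in microglia by limma's test of the difference. The transplant value was the lower one, as a log2 difference, for Ank (-2.97), Axl (-1.85), Itgax (-1.49), Ssh2 (-1.23), Ugcg (-1.11), Hmgcs1 (-0.97) and Entpd1 (-0.69). It was the higher one for the choroid plexus genes Kl (8.36), Ttr (6.75), Folr1 (6.59) and Enpp2 (6.50). Among genes of neutrophils, monocytes and immune receptors it was higher for Wfdc21 (4.83), S100a9 (4.62), Trem1 (4.16), Pglyrp1 (4.13), Trem3 (3.89), Ifitm6 (3.87), Cd300ld (2.35), Ifitm2 (2.00) and Pirb (1.62). The others were C3 (2.74), Lgals3 (2.51), Wfdc17 (2.39), Slc7a11 (2.38), Nr1h3 (2.21), C4b (1.83), Vim (1.73), Lyz2 (1.42) and Pltp (1.03).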

How the results depend on the processing

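The number of genes called between Trem2-WT and Trem2-KO donor libraries was 816. Array weights gave 3459, DESeq2 1573, and it was 485 with the length and GC correction, 166 from the 8 transplant libraries alone, 119 with S30 and S31 averaged and 17 without them, and it ran from 115 to 1809 with 1 library left out. In microglia the count of 609 became 5821 under array weights, 981 by DESeq2 and 1011 after the length and GC correction, and ran from 296 to 3714 with 1 library left out. The difference between contrasts, 355 genes, gave 4545 with array weights, 838 with DESeq2, 632 with the length and GC correction, 227 with the pair averaged and 155 without it, and ran from 185 to 1705 with 1 library left out. The other pseudocounts, filters, scalings and edgeR kept the transplant count between 722 and 1015. Of the 95 called named genes, 44 kept the call with the pair averaged, 61 with the length and GC correction and 11 without the pair, and Ptpn6 reversed with the correction (-0.0184). The causes were not tested. No paired analysis was possible because the columns carry no replicate numbers of the labels. Low genes such as Fabp3 rest on few reads.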
